A study of Huso dauricus x Acipenser schrenckii with 16 samples.

Results

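Collagen genes were followed in the ovary of farmed sturgeon hybrids, whose mother was Huso dauricus and whose father was Acipenser schrenckii. A row of the deposited gene table was taken as a collagen gene when the first entry of its protein description contained the words collagen alpha, followed by a hyphen, in any case. The rule found 98 of 41685 rows. They cover 25 collagen types. By the structure of their products 18 rows are fibrillar (types I, II, III, V, XI, XXIV and XXVII, with no row for III), 11 are basement membrane type IV and 17 are beaded-filament type VI. Another 25 rows are FACIT collagens, which sit on the surface of fibrils, 6 are transmembrane, 5 are multiplexins and 16 belong to other types. All but 1 are mRNA rows. The exception, the alpha-3(VI) row LOC131728505, is annotated as a long non-coding RNA.

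Collagens are proteins of 3 chains wound into a triple helix. Fibrillar collagens assemble into the load-bearing fibrils of connective tissue, type IV forms the sheet-like network of basement membranes, and type VI forms beaded filaments around cells. In a fish ovary these proteins surround the follicles: a basement membrane lies between the granulosa cells, which enclose the oocyte, and the theca, and the theca and the stroma between follicles hold fibroblasts, smooth muscle and vessels. The oocyte itself fills most of the volume of a growing follicle.

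The high-yield group held 8 adult females of a population ranked high for its yield of caviar, and the low-yield group 8 adult females of another population at the same farm. All were of the same cross and were kept under normal breeding conditions, and each gave 1 poly(A)-selected library of ovary RNA. Yield rank therefore cannot be told apart from any other difference between the populations. The high-yield libraries fell into near-identical pairs, library 1 with library 5, 2 with 6, 3 with 7 and 4 with 8. Spearman's rho across genes was 0.987 to 0.993 within these 4 pairs and at most 0.969 in the other 116 pairs of libraries. The counts within a pair differed by 4.31 to 5.73 times Poisson variance, against 22.4 or more elsewhere. Each pair was counted as 1 sample, so 4 high-yield samples stand against 8 low-yield samples, and the p-values measure the spread between these samples. Totals ran from 37362125 to 60873931 counts per library.

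Low-yield libraries 2 and 5 stood apart from the others in the collagen genes, and also over all genes. Spearman's rho with the other libraries was 0.845 to 0.902 for low-yield 2 and 0.817 to 0.876 for low-yield 5. Among the other 6 low-yield libraries it was 0.925 to 0.969. The summed level of all 98 rows was 152, 102, 158 and 248 FPKM (fragments per kilobase of transcript, adjusted for library depth) in the high-yield pairs 1+5, 2+6, 3+7 and 4+8. In low yield it was 1719.7 FPKM in library 2, 1488 in library 5, and 104 to 254 with a median of 151 in the other 6. The 4 high-yield samples thus lay within the range of those 6 except for the lowest, which was just under it. The group means were 165 ± 60.9 FPKM in high yield (SD, n = 4) and 525 ± 670 FPKM in low yield (SD, n = 8). Fold changes below are given with both libraries and without them.

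**Figure D1:**
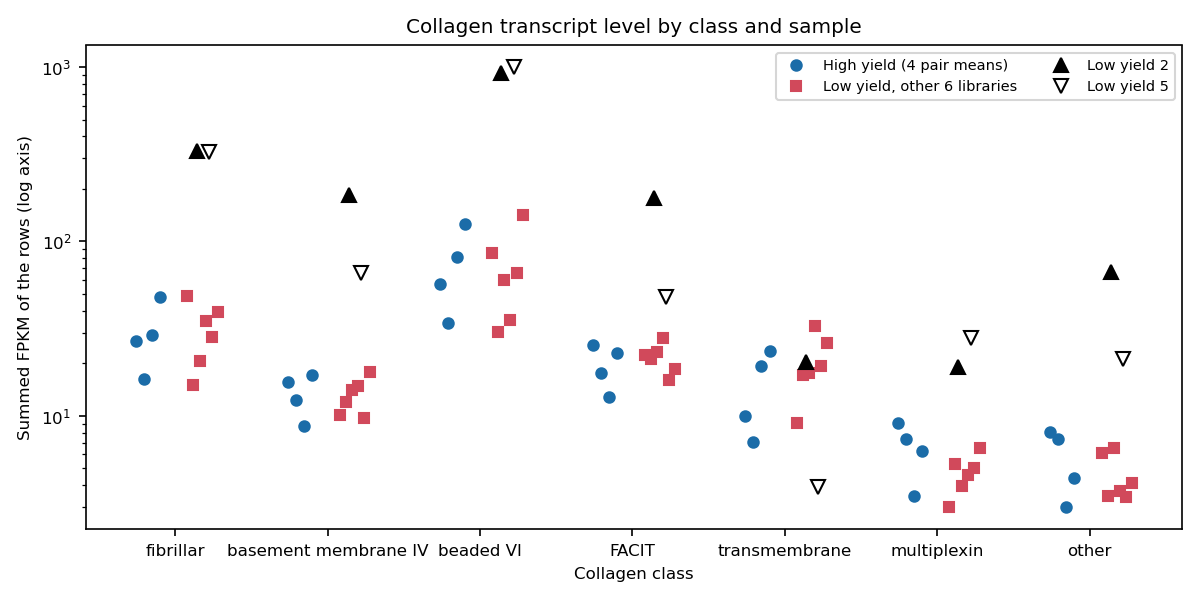
Summed FPKM of the collagen rows of each class (log axis) in 12 samples, with 4 high-yield pair means left of the 8 low-yield libraries in each class. Low yield 2 and 5 (triangles) lie above all other samples in 6 of the 7 classes, type VI at 923 and 994 FPKM, while in the transmembrane class low yield 5 is the lowest sample at 3.92 FPKM.

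No collagen row passed the test between the yield groups. With edgeR's quasi-likelihood F test and Benjamini-Hochberg adjustment over 30009 tested genes, 0 of the 77 collagen rows that passed the low-count filter had an adjusted p under 0.05, as did 0.0% of all genes in either direction. The smallest adjusted p was 0.574. At an unadjusted p under 0.05 in the same test, 10 collagen rows were lower in high yield (background 3.35%) and 0 were higher (background 5.18%). The fold change was below 0 in 67 of the 77 rows, against 51.4% of all tested genes. The median log2 fold change, high over low yield, was -1.32 over the collagen rows and -0.02 over all tested genes. In 0 rows did the groups not overlap, where 0.193% of all genes lay lower and 0.243% higher without overlap.

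The fold changes below 0 depended on low-yield 2 and 5. Both libraries were singled out by their high collagen levels and belong to low yield. Leaving them out was thus bound to raise most collagen fold changes, and the size of the shift was not tested. Without both libraries, 37 of 71 tested collagen rows had a fold change below 0 (background 47.8%), and the median was -0.09, against 0.03 for all genes. Without low-yield 2 alone the median was -0.80, and without low-yield 5 alone -0.78. edgeR again called 0 genes, and at an unadjusted p under 0.05 it had 3 collagen rows lower (background 4.35%) and 2 higher (background 8.55%).

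Other treatments of the samples gave 0 collagen calls too. With all 16 libraries taken as independent, edgeR called 16 genes, of which 14 were lower (0.0506% of all tested) and 0 were among 68 collagen rows. In that fit 35 collagen rows were lower at an unadjusted p under 0.05 (background 10.7%), and their smallest adjusted p was 0.0885. DESeq2 on the 4 pairs and 8 libraries called 61 genes lower (0.203%) and 25 higher (0.0833%), none of them a collagen row (14 collagen rows had no adjusted p there), with 16 collagen rows lower at an unadjusted p under 0.05 (background 5.56%). With its default settings, used here, DESeq2 replaces outlying counts in the 8 low-yield libraries but not in the 4 high-yield pairs. The fit thus treats the groups unlike. Its collagen median was -0.78, and the part of the replacement in this value was not tested. The 21 rows that did not pass the low-count filter reached at most 131 counts in any library and a mean of at most 0.742 FPKM.

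**Figure D2:**
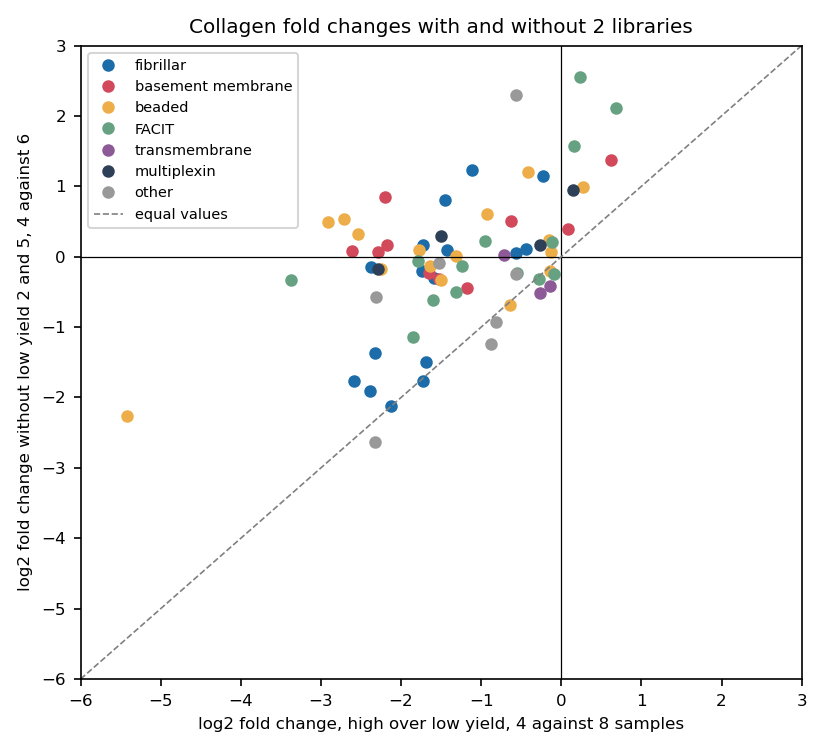
Log2 fold change (high over low yield) of each tested collagen row with all 12 samples (x axis) and without low yield 2 and 5 (y axis), coloured by class. Most points lie above the dashed line of equal values, with a median of -1.32 on the x axis and -0.09 on the y axis. Low yield 2 and 5 were left out for their high collagen levels, which by itself moves points upward.

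By FPKM, collagen RNA was concentrated in few rows. The alpha-3(VI) row LOC131728757 held 26.5% of the summed mean FPKM of all 98 rows, the alpha-1(VI) row LOC131727273 held 21.3% and the alpha-1(I) row LOC117434956 held 11.8%. The 12 most abundant rows held 80.0%. Abundance is ranked by FPKM, which divides by transcript length, and counts ranked the first 3 rows otherwise. Over all libraries LOC131728757 had 8337 counts, LOC131727273 had 7027 and LOC117434956 had 61934. The 2 type VI rows thus had fewer counts than LOC117434956 at a higher mean FPKM, so their rank above it rests on the division by transcript length. The order of the first 2 rests on low-yield 2 and 5. Over the 10 samples without them LOC131727273 came first with 23.6%, LOC131728757 held 12.9% and LOC117434956 10.2%, and the 12 most abundant rows held 76.5%. A mean of at least 1 FPKM was reached by 39 of the 98 rows.

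Among the fibrillar collagens, type I is the main protein of fibrils in most connective tissues and types V and XI nucleate and limit the width of fibrils. All 17 tested fibrillar rows had a fold change below 0, with a median of -1.69, and without low-yield 2 and 5 the median was -0.19 with 10 of 17 below 0. The most abundant, alpha-1(I) LOC117434956, stood at 16.7, 9.27, 18.1 and 29.4 FPKM in high yield. In low yield it ran from 5.11 to 241 FPKM with a median of 19.5, the highest values being 241 in library 5 and 163 in library 2. The groups overlapped, and the high-yield median was 17.4 FPKM. Its log2 fold change was -1.73 (SE 1.00, edgeR adjusted p = 0.623), and 0.17 without both libraries.

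The partner chain alpha-2(I) LOC117426870, which joins alpha-1 chains in the type I helix, had the same pattern. Its level was 0.938, 0.623, 0.910 and 2.58 FPKM in high yield and 0.738 to 26.7 FPKM with a median of 1.37 in low yield. High-yield pair 4+8 stood above the other 3 pairs, and low-yield 2 and 5 (26.7 and 21.9 FPKM) above all samples. Its log2 fold change came to -2.38 (SE 1.09, edgeR adjusted p = 0.581), and -0.15 without the 2 libraries. The other alpha-2(I) rows by the rule, LOC117403673 and LOC117426820, were picked after their values were seen. Their log2 fold changes of -1.11 and -1.45 turned to 1.24 and 0.80 without low-yield 2 and 5. Summed over rows, the level of alpha-1(I) chains over that of alpha-2(I) chains was 4.22 to 6.48 in high yield and 4.00 to 9.19 in low yield, with 4.00 in library 2 and 5.54 in library 5. These sums leave out col1a2, whose description is worded outside the rule and whose mean of 7.53 FPKM is above that of LOC117426870. With col1a2 added the ratio was 2.52 to 3.15 in high yield, and in low yield 2.25 in library 2, 3.15 in library 5 and 3.16 to 4.57 in the other 6. Low-yield 2 had the lowest ratio of the 12 samples both without and with col1a2. The summed type I level by the rule was 11.3 to 35.0 FPKM in high yield, and in low yield 208 FPKM in library 2, 286 in library 5 and 9.18 to 36.6 in the other 6.

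A second alpha-1(I) row, LOC117433526, had the smallest unadjusted p of all collagen rows. It stood at 0.358, 0.348, 0.472 and 0.628 FPKM in high yield and at 0.404 to 3.22 FPKM with a median of 1.5 in low yield. All 4 high-yield samples lay below 7 of the 8 low-yield libraries, low-yield 7 being the exception at 0.404. The log2 fold change was -1.73 (SE 0.58, edgeR adjusted p = 0.574) and -1.76 without low-yield 2 and 5, where this row had 25.5% of its summed FPKM in these libraries against 70.6% for the abundant alpha-1(I) row. Rows of 1 chain can be copies from genome duplication in sturgeons, and how the counting split reads between near-identical copies is not known, so values of single rows are uncertain.

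Type V and XI rows followed both patterns. The alpha-1(V) row LOC117422365 had 0.842, 1.19, 2.35 and 4.96 FPKM in high yield and 0.882 to 25.9 FPKM with a median of 2.42 in low yield, a log2 fold change of -1.42 that became 0.10 without low-yield 2 and 5. The low-abundance alpha-3(V) row LOC117402031 had 0.00844, 0.0271, 0.0162 and 0.0406 FPKM in high yield and 0.0363 to 0.546 FPKM with a median of 0.107 in low yield. Here 3 of the 4 high-yield samples lay below every low-yield library, and the log2 fold change, -2.39 with an SE of 0.85 (edgeR adjusted p = 0.574), was -1.91 without the 2 libraries.

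Both alpha-2(XI) rows were highest in low-yield 2, with low-yield 5 near the other libraries. LOC117971446 stood at 1.99, 1.07, 1.34 and 3.54 FPKM in high yield and at 0 to 65.2 FPKM with a median of 5.09 in low yield, where library 2 had 65.2, library 6 15.4 and library 5 5.32 FPKM. LOC117434268 stood at 0.195, 0.122, 0.108 and 0.265 FPKM in high yield and at 0.108 to 6.23 FPKM with a median of 0.465 in low yield, again highest in libraries 2 and 6. The log2 fold changes were -2.32 and -2.58 (SE 1.21 and 0.92, edgeR adjusted p = 0.605 and 0.574), and -1.37 and -1.76 without low-yield 2 and 5.

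**Figure D3:**
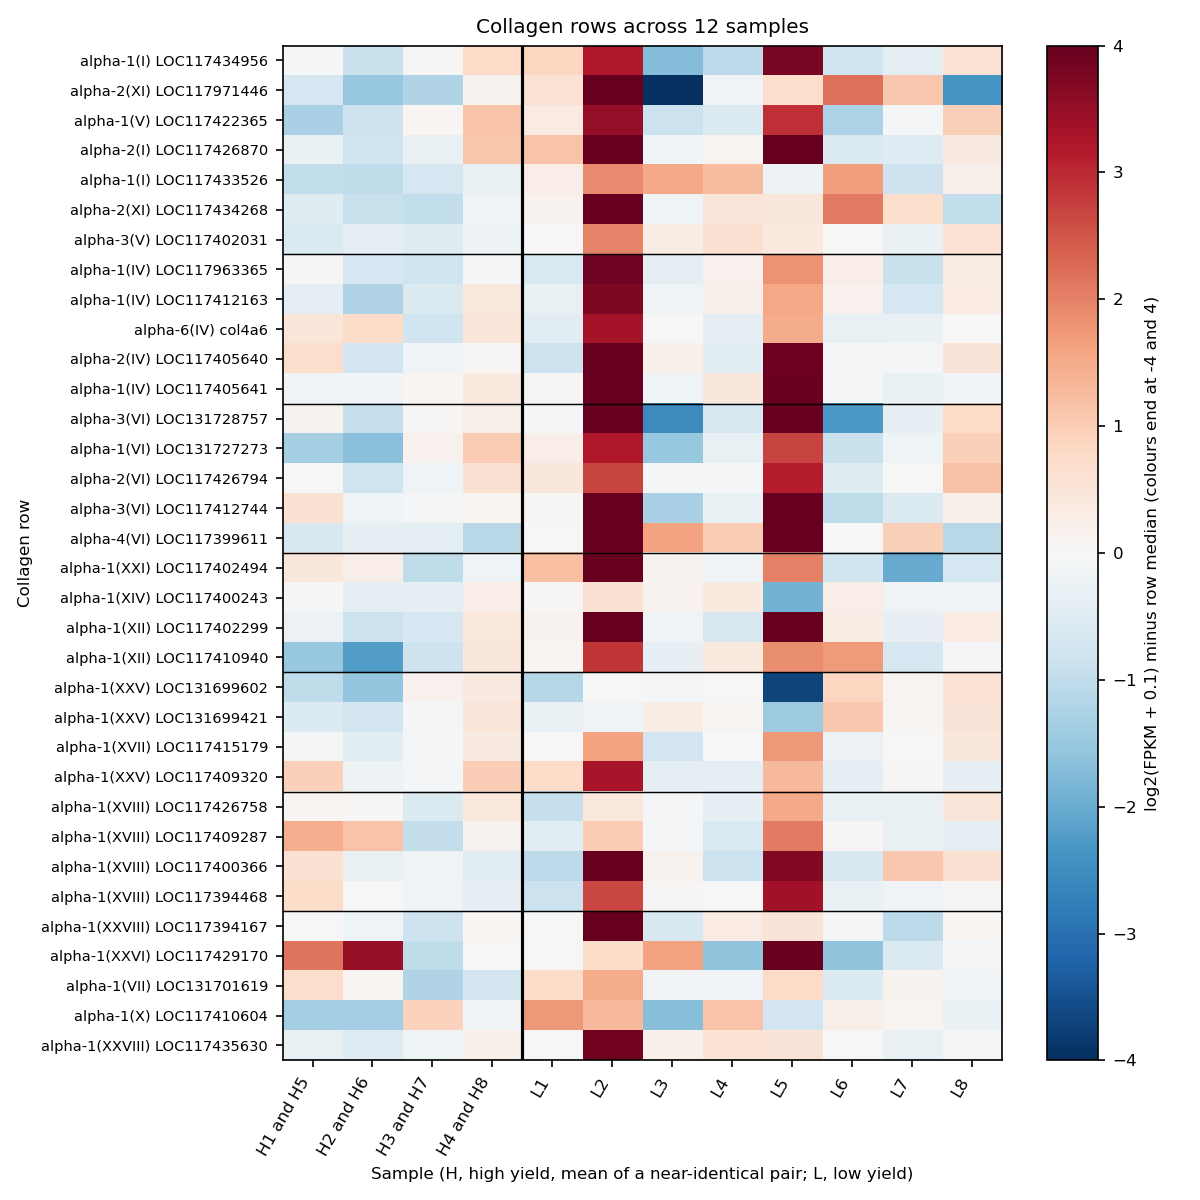
Level of 34 collagen rows in 12 samples as log2(FPKM + 0.1) minus the median of the row over the samples, with high yield left of the thick line and low yield right of it, and colours that end at -4 and 4. Low yield 2 and 5 (L2 and L5) are the darkest red columns in most rows of types I, V, VI, XII and IV, while the XIV row and the 2 upper XXV rows are near the row median in L2 and blue in L5.

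Type IV chains form the basement membrane network. Of the 11 rows, all tested, 8 had a fold change below 0, with a median of -1.53, and without low-yield 2 and 5 the median was 0.12 with 3 of 10 below 0. The summed level was 15.7, 12.2, 8.71 and 17.2 FPKM in high yield, and in low yield 183 FPKM in library 2, 65.6 in library 5 and 9.74 to 17.7 in the other 6. The 4 high-yield samples thus lay in or just below the range of those 6. Unlike fibrillar and type VI collagen, where the sums of low-yield 2 and 5 were level (329 and 327 FPKM, and 923 and 994 FPKM), summed type IV stood higher in library 2 than in library 5. Not every type IV row did. LOC117406566 had 4.77 and 6.99 FPKM in libraries 2 and 5, and LOC117406567 had 3.99 and 5.26. Within the fibrillar sum, type I was higher in library 5 (208 and 286 FPKM) and type XI in library 2 (75.4 and 7.50).

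The 2 most abundant rows named alpha-1(IV) were close to each other in level. LOC117963365 stood at 3.90, 2.27, 2.14 and 3.60 FPKM in high yield and at 1.97 to 57.5 FPKM with a median of 4.40 in low yield. LOC117412163 stood at 2.76, 1.52, 2.38 and 4.82 FPKM in high yield and at 2.18 to 49.3 FPKM with a median of 4.12 in low yield. In both rows library 2 was the highest sample and library 5 the second, and the groups overlapped. The log2 fold changes were -1.65 and -1.53 (SE 0.76 and 0.71, edgeR adjusted p = 0.584 for both), and -0.23 and -0.31 without these libraries.

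Type IV genes stood in pairs in the table. Of 19 pairs of neighbouring collagen rows, 6 were head to head, that is, on opposite strands with their starts facing each other, and 5 of these joined 2 type IV rows. In mammals the genes of type IV chains lie in the same arrangement and each pair shares a promoter region. The alpha-2(IV) row LOC117405640 and the alpha-1(IV) row LOC117405641 were 36 bases apart, and the alpha-1(IV) row LOC117406567 and the alpha-2(IV) row LOC117406566 86 bases apart. The table names both partners of the alpha-6(IV) rows alpha-1(IV): col4a6 lay 1916 bases from LOC117963365, and LOC117430504 lay 6281 bases from LOC117412163. In mammals the partner of alpha-6(IV) is alpha-5(IV), so which chain these 2 partners encode is uncertain. The alpha-3(IV) row LOC117417044 and the alpha-4(IV) row col4a4 were 59 bases apart.

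The partners stood at like or unlike levels depending on the pair. LOC117405640 had 1.15, 0.351, 0.612 and 0.690 FPKM in high yield, and 14.3 and 11.6 FPKM in low-yield 2 and 5 with 0.323 to 1.00 in the other 6. Its partner LOC117405641 had 0.118, 0.129, 0.156 and 0.219 FPKM in high yield, and 3.67 and 3.68 FPKM in low-yield 2 and 5 with 0.105 to 0.236 in the other 6. Both were thus highest in the same 2 libraries, and the level of the first over the second ran from 1.96 to 9.73 over the 12 samples. Their log2 fold changes were -2.28 and -2.61 (SE 1.10 and 1.18, edgeR adjusted p = 0.584 and 0.581), and 0.07 and 0.08 without low-yield 2 and 5.

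The alpha-6(IV) row col4a6 differed from its partner. It stood at 5.28, 6.30, 2.10 and 5.32 FPKM in high yield and at 2.71 to 38.3 FPKM with a median of 3.42 in low yield. In 3 of the 4 high-yield samples it was above each of the 6 low-yield libraries other than 2 and 5 (2.71 to 3.80 FPKM), while LOC117963365 was not. Its log2 fold change was -0.63 (SE 0.63, edgeR adjusted p = 0.748), and 0.50 without the 2 libraries. The level of col4a6 over that of LOC117963365 ran from 0.667 to 2.78. Both alpha-3(IV) rows and col4a4, the chains of specialised basement membranes, had mean levels of 0.0215 to 0.237 FPKM and log2 fold changes of 0.08 to 0.62, and of 0.39 and 1.38 in the 2 of these rows tested without low-yield 2 and 5.

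**Figure D4:**
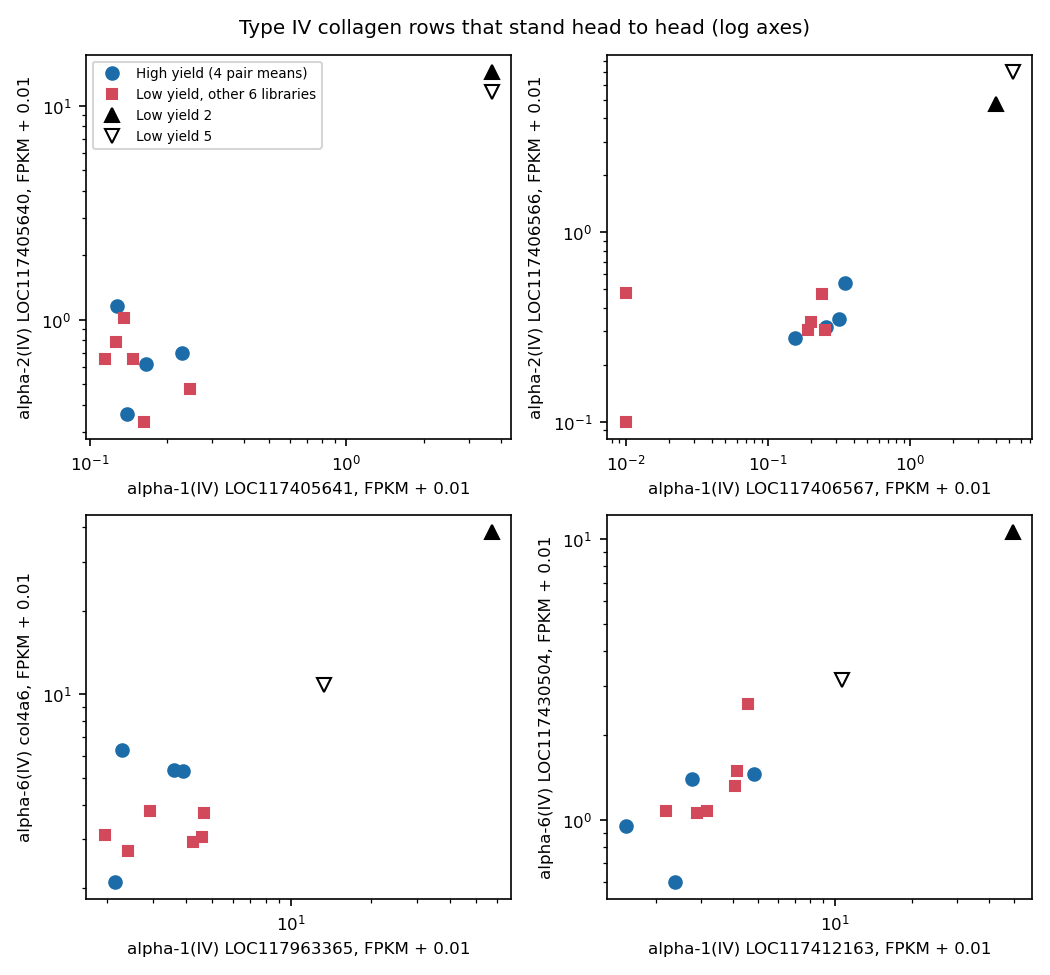
FPKM (plus 0.01, log axes) of 4 pairs of type IV rows that stand head to head, in 4 high-yield pair means and 8 low-yield libraries. The partner named alpha-1(IV) is on each x axis. Low yield 2 and 5 are at the upper right of each panel and close together in both upper panels, whereas in the lower panels low yield 2 is well above low yield 5, col4a6 at 38.3 against 10.8 FPKM.

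Type VI chains, alpha-1, alpha-2 and a larger partner such as alpha-3, made up the largest class by summed FPKM. This rank rested on 2 rows, LOC131728757 and LOC131727273, with means of 107 and 86.2 FPKM and totals of 8337 and 7027 counts. It did not hold for counts over all libraries, where the fibrillar rows had more, 61934 of them in LOC117434956 alone. Of 16 tested type VI rows 15 had a fold change below 0 (median -1.41), and without low-yield 2 and 5 the median was 0.09 with 6 of 16 below 0. LOC131728757, alpha-3(VI), stood at 28.2, 13.5, 26.5 and 30.1 FPKM in high yield and at 4.24 to 626 FPKM with a median of 22.4 in low yield. The 626 was low-yield 5 and library 2 had 448, while the other 6 had 4.24 to 43.7 FPKM. A log2 fold change of -2.54 was fitted (SE 1.31, edgeR adjusted p = 0.599), and 0.33 without both.

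The alpha-1(VI) row LOC131727273 stood at 16.2, 12.8, 46.1 and 81.8 FPKM in high yield and at 14.3 to 376 FPKM with a median of 42.4 in low yield. High-yield pairs 1+5 and 2+6 were lower than 3+7 and 4+8, and low-yield 2 was the highest sample. Its fitted log2 fold change was -1.32 (SE 0.86, edgeR adjusted p = 0.651), and 0.01 without low-yield 2 and 5. The alpha-2(VI) row LOC117426794 had 4.86, 2.80, 4.30 and 7.61 FPKM in high yield and 3.49 to 44.5 FPKM with a median of 5.83 in low yield (log2 fold change -1.50, and -0.33 without both libraries).

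The proportions of the chains differed between samples. The summed level of alpha-3(VI) rows over that of alpha-1(VI) rows was 1.85, 1.12, 0.599 and 0.378 in the high-yield pairs 1+5, 2+6, 3+7 and 4+8. It was 1.23 in low-yield 2, 2.38 in low-yield 5 and 0.243 to 0.586 in the other low-yield libraries. These sums leave out col6a3, an alpha-3(VI) row whose description is worded outside the rule. With it the ratio was 2.20, 1.42, 0.718 and 0.457 in the high-yield pairs, and in low yield 1.48 in library 2, 2.86 in library 5 and 0.433 to 0.697 in the other 6. High-yield pairs 1+5, 2+6 and, by a small margin, 3+7 lay above the other 6 low-yield libraries on this ratio both ways, as low-yield 2 and 5 did. The summed type VI levels of these pairs, 56.9, 34.1 and 81.7 FPKM, were within the 30.3 to 141 FPKM of the other 6 low-yield libraries.

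The alpha-4(VI) row LOC117399611 had the lowest fold change of all collagen rows. It stood at 0.0384, 0.0722, 0.0701 and 0 FPKM in high yield and at 0 to 9.14 FPKM with a median of 0.328 in low yield, where libraries 2 and 5 had 9.14 and 8.87 and library 8 had 0. Its log2 fold change came to -5.42 (SE 1.87, edgeR adjusted p = 0.574), and -2.26 without low-yield 2 and 5. An alpha-3(VI) row of lower level, LOC117412744, had 1.11, 0.611, 0.665 and 0.734 FPKM in high yield and 0.221 to 21.4 FPKM with a median of 0.642 in low yield, a log2 fold change of -2.71 that became 0.54 without the 2 libraries. Of the 5 alpha-6(VI) rows, none had a mean over 1 FPKM in high yield, and their log2 fold changes ran from -0.92 to 0.27, and from -0.21 to 1.21 without low-yield 2 and 5.

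FACIT collagens bind to the surface of fibrils, types XII and XIV mainly to type I fibrils. Of 25 rows 15 were tested, and 12 of these had a fold change below 0 (median -0.95), while without low-yield 2 and 5 it was 9 of 14 (median -0.18). The alpha-1(XII) row LOC117402299 had 0.468, 0.270, 0.321 and 0.804 FPKM in high yield and 0.331 to 30.1 FPKM with a median of 0.685 in low yield. Low-yield 2 and 5 held 89.1% of its FPKM over the 12 samples. The log2 fold change was -3.38 (SE 1.32, edgeR adjusted p = 0.576), and -0.33 without both. The other alpha-1(XII) row, LOC117410940, had 0.547, 0.291, 0.940 and 2.43 FPKM in high yield and 1.05 to 13.4 FPKM with a median of 2.07 in low yield, with 3 of the 4 high-yield samples below every low-yield library and a log2 fold change of -1.85, which was -1.14 without the 2 libraries.

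The most abundant rows of types XXI and XIV showed opposite patterns in low-yield 5. The alpha-1(XXI) row LOC117402494 stood at 4.01, 3.46, 1.38 and 2.54 FPKM in high yield and at 0.639 to 70.4 FPKM with a median of 2.90 in low yield, with 70.4 FPKM in library 2 and 11.9 in library 5. The abundant alpha-1(XIV) row LOC117400243 had 8.22, 6.54, 6.51 and 10.2 FPKM in high yield and 2.24 to 13.0 FPKM with a median of 9.03 in low yield, where library 5 was the lowest of all 12 samples. A second alpha-1(XIV) row, LOC117435602, named after its values were seen, was also lowest in low-yield 5, at 0.562 FPKM. The other 4 alpha-1(XIV) rows were not, with low-yield 5 among their 4 highest samples, at 0.0747 to 0.203 FPKM. The log2 fold changes of LOC117402494 and LOC117400243 were -1.79 and -0.09 (SE 1.01 and 0.29, edgeR adjusted p = 0.616 and 0.934), and -0.06 and -0.24 without low-yield 2 and 5.

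Type IX, a FACIT that coats the type II fibrils of cartilage, had 8 rows, all at low level. Their summed level was 2.82, 1.58, 0.0722 and 0.175 FPKM in high yield, and in low yield 3.97 FPKM in library 2, 1.61 in library 5 and 0.0953 to 1.18 in the other 6. High-yield pairs 1+5 and 2+6 and low-yield 2 and 5 were the 4 highest samples.

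Transmembrane collagens are anchored in the cell membrane and can be shed from it. The 2 abundant rows of the class, both alpha-1(XXV), were lowest in low-yield 5, while in 3 of the 6 rows low-yield 2 and 5 were the 2 highest samples. The alpha-1(XXV) row LOC131699602, the fourth most abundant collagen row, stood at 7.40, 5.14, 17.0 and 19.7 FPKM in high yield and at 1.09 to 28.0 FPKM with a median of 15.2 in low yield. Low-yield 5 was the lowest sample at 1.09 FPKM, low-yield 2 stood at 15.5 FPKM amid the others, and high-yield pairs 1+5 and 2+6 were below 3+7 and 4+8. The second alpha-1(XXV) row, LOC131699421, had 1.45, 1.26, 2.07 and 3.10 FPKM in high yield and 0.745 to 4.71 FPKM with a median of 2.36 in low yield, again lowest in library 5. The log2 fold changes of these rows were -0.14 and -0.27 (SE 0.62 and 0.44, edgeR adjusted p = 0.951 and 0.853), and -0.41 and -0.52 without low-yield 2 and 5.

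The other transmembrane rows were low in level. The alpha-1(XXV) row LOC117409320 had 0.152, 0.0137, 0.0263 and 0.159 FPKM in high yield and 0 to 1.18 FPKM with a median of 0.0173 in low yield, where library 2 had 1.18 and library 5 0.219 FPKM. A log2 fold change of -0.81 turned to 0.41 without low-yield 2, and the row was not tested without both libraries. The alpha-1(XVII) row LOC117415179, a collagen that in mammals anchors epithelial cells at hemidesmosomes, stood at 0.301, 0.204, 0.296 and 0.421 FPKM in high yield and at 0.144 to 1.27 FPKM with a median of 0.316 in low yield, with the 2 highest values in libraries 5 (1.27) and 2 (1.16). Its log2 fold change was -0.72, and 0.03 without low-yield 2 and 5.

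Multiplexins are basement membrane collagens with interrupted helices, and type XVIII carries the endostatin fragment at its end. Of the 4 tested rows, all alpha-1(XVIII), 3 had a fold change below 0 (median -0.89), and 1 without low-yield 2 and 5 (median 0.23). LOC117426758 had 3.11, 3.0, 1.94 and 3.93 FPKM in high yield and 1.51 to 8.55 FPKM with a median of 2.61 in low yield. LOC117409287 had 4.40, 3.52, 0.743 and 1.72 FPKM in high yield and 0.974 to 6.81 FPKM with a median of 1.36 in low yield. Both were highest in low-yield 5, and LOC117409287 was next highest in high-yield pairs 1+5 and 2+6. Their log2 fold changes were -0.27 and 0.15 (SE 0.43 and 0.58, edgeR adjusted p = 0.850 and 0.945), and 0.17 and 0.95 without low-yield 2 and 5, so LOC117426758 turned direction.

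The remaining tested XVIII rows had their highest levels in low-yield 2 and 5. LOC117400366 had 0.649, 0.300, 0.348 and 0.269 FPKM in high yield, and 7.99 and 6.30 FPKM in low-yield 2 and 5 with 0.136 to 0.944 in the other 6. LOC117394468 had 0.908, 0.509, 0.456 and 0.389 FPKM in high yield, and 3.84 and 6.23 FPKM in low-yield 2 and 5 with 0.240 to 0.538 in the other 6. The log2 fold changes were -2.29 and -1.50, and -0.18 and 0.29 without these libraries.

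In the other types, low-yield 2 and 5 stood high in different rows. The alpha-1(XXVIII) row LOC117394167, of a collagen with von Willebrand factor A domains, stood at 2.91, 2.63, 1.64 and 3.13 FPKM in high yield and at 1.39 to 57.6 FPKM with a median of 3.08 in low yield, with 57.6 FPKM in library 2 and 4.29 in library 5. A second alpha-1(XXVIII) row, LOC117435630, had 0.0410, 0.0220, 0.0523 and 0.101 FPKM in high yield and 0.0402 to 2.41 FPKM with a median of 0.0865 in low yield, also highest in library 2. The alpha-1(XXVI) row LOC117429170 stood at 1.25, 3.35, 0.0531 and 0.202 FPKM in high yield and at 0 to 10.2 FPKM with a median of 0.201 in low yield, with 10.2 FPKM in library 5 and 0.408 in library 2. High-yield pairs 1+5 and 2+6 were the next highest samples after low-yield 5 in this row.

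None of these differences passed the test. The log2 fold changes of LOC117394167 and LOC117435630 were -1.53 and -2.31 (SE 0.83 and 1.08, edgeR adjusted p = 0.611 and 0.584), and -0.09 and -0.58 without low-yield 2 and 5. That of LOC117429170 was -0.56 (SE 1.62, edgeR adjusted p = 0.924), and it turned to 2.29 without both libraries. The alpha-1(VII) row LOC131701619, whose product in mammals forms the anchoring fibrils of skin, had 0.775, 0.480, 0.136 and 0.227 FPKM in high yield and 0.265 to 1.42 FPKM with a median of 0.445 in low yield (log2 fold change -0.57, and -0.25 without low-yield 2 and 5). The alpha-1(X) row LOC117410604, of a collagen known from growth cartilage, had 0.0272, 0.0277, 0.512 and 0.201 FPKM in high yield and 0 to 0.993 FPKM with a median of 0.268 in low yield. The log2 fold change of this row was -0.81, and -0.92 without low-yield 2 and 5. It was -2.15 without high-yield pair 3+7 and -0.32 without low-yield 1, the ends of its range when samples were left out 1 at a time.

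Across the tested rows, low-yield 2 and 5 were the 2 highest of the 12 samples by FPKM in 43 of 77 (55.8%), where the share over all tested genes was 12.5%. Low-yield 2 was the highest sample in 49 rows (63.6%, background 33.3%) and low-yield 5 in 16 (20.8%, background 8.38%). These libraries together held over 50% of the FPKM in 47 of the 77 rows (background 10.8%). They held at most an equal share of 16.7% in 6 rows (7.79%, background 41.2%). The median share was 58.1% over the collagen rows and 18.9% over all tested genes. These counts describe libraries singled out by their values, and no test was made of them.

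The 2 libraries were not alike in every type. Summed by type, low-yield 2 was higher than low-yield 5 in type XI (75.4 and 7.50 FPKM), type XXI (73.3 and 12.2), type XXVIII (62.2 and 5.62), type XIV (24.3 and 3.39) and type XXV (18.6 and 2.05). Low-yield 5 was higher in type XXVI (12 and 0.901 FPKM), type I (286 and 208) and type XVIII (27.9 and 19.0). Type VI was near level.

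**Figure D5:**
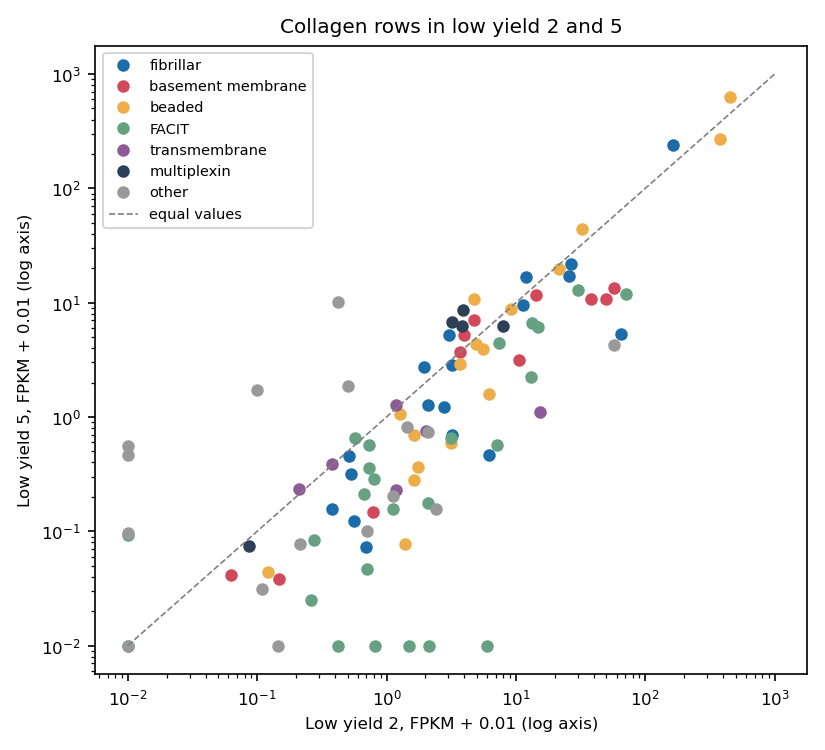
FPKM (plus 0.01, log axes) of the 98 collagen rows in low yield 2 (x axis) and low yield 5 (y axis), coloured by class, with a dashed line of equal values. The 3 most abundant rows are near the line, most FACIT rows (green) lie below it, and multiplexin rows (dark blue) lie mostly on or above it.

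Genes that make, modify, bind or break down collagen were read from the same fit. The list of 49 symbols covered hydroxylases, chaperones, proteinases, cross-linking enzymes, proteoglycans, matrix metalloproteinases and collagen receptors, of which 45 matched 108 rows. Of 88 tested rows, 54 had a fold change below 0 (background 51.4%) and 34 above, and edgeR called 0. At an unadjusted p under 0.05, 5 were lower (background 3.35%) and 5 higher (background 5.18%). The median log2 fold change was -0.28, and 0.16 without low-yield 2 and 5, where 31 of 83 rows were below 0.

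The enzymes and chaperones that act on the chains inside the cell had a median near 0. Of their 39 tested rows 17 had a fold change below 0 and 22 above, with a median of 0.10, and without low-yield 2 and 5 the median was 0.16. With all samples, 1 was lower (background 3.35%) and 3 were higher (background 5.18%) at an unadjusted p under 0.05 in edgeR. The prolyl isomerase PPIB (LOC117964293) stood at 1131, 1161, 1911 and 1441 FPKM in high yield and at 788 to 1602 FPKM in low yield (log2 fold change 0.36, and 0.21 without low-yield 2 and 5). The beta subunit of prolyl 4-hydroxylase, P4HB (LOC117423582), which is also a general disulfide isomerase, had 158, 184, 139 and 268 FPKM in high yield and 76.3 to 235 FPKM in low yield (log2 fold change 0.12, and -0.05 without low-yield 2 and 5). P3H1 (LOC131701821), which 3-hydroxylates prolines, and its partner CRTAP (LOC117394996) had log2 fold changes of 0.24 and 0.27, and of 0.25 and 0.16 without these libraries.

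The catalytic subunit P4HA3 (LOC117972750) split the high-yield samples. It stood at 753, 765, 104 and 151 FPKM in the pairs 1+5, 2+6, 3+7 and 4+8, and at 107 to 405 FPKM in low yield. Pairs 1+5 and 2+6 were thus above every low-yield library, while pair 3+7 was below all of them. The log2 fold change was 0.70 (SE 0.45, edgeR adjusted p = 0.651), and 0.83 without low-yield 2 and 5. SERPINH1 (LOC117962315), the collagen-specific chaperone, had 2.72, 0.994, 3.12 and 4.29 FPKM in high yield and 1.22 to 9.78 FPKM in low yield, a log2 fold change of -0.33 that was 0.16 without low-yield 2 and 5.

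Among genes acting outside the cell, 26 of 32 tested rows had a fold change below 0 (background 51.4%, median -1.05), and 15 of 29 without low-yield 2 and 5 (background 47.8%, median -0.03). No row was called. With all samples, 2 were lower (background 3.35%) and 0 higher (background 5.18%) at an unadjusted p under 0.05 in edgeR. Decorin, a proteoglycan that binds type I fibrils (LOC117415452), had 5.93, 1.96, 6.26 and 4.76 FPKM in high yield and 2.88 to 49.7 FPKM in low yield (log2 fold change -1.36, and -0.06 without low-yield 2 and 5). The membrane collagenase MMP14 (LOC131709675) had 29.7, 12.7, 15.4 and 22.3 FPKM in high yield and 13.7 to 177 FPKM in low yield (log2 fold change -1.54, and -0.29 without both). Both were highest in low-yield 2 and 5. The cross-linking enzyme LOXL2 (LOC117971682) had 7.23, 36.8, 3.38 and 5.28 FPKM in high yield and 2.36 to 24.3 FPKM in low yield, and its log2 fold change of 0.58 was -0.72 without high-yield pair 2+6 and 1.55 without low-yield 2 and 5.

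Collagen receptors lay on both sides of 0, with 11 of 17 tested rows below 0 and a median log2 fold change of -0.07. Without low-yield 2 and 5 it was 5 of 15, with a median of 0.62. With all samples, 2 receptor rows were lower (background 3.35%) and 2 higher (background 5.18%) at an unadjusted p under 0.05 in edgeR. DDR2 (LOC117416602), a receptor tyrosine kinase for fibrillar collagen, stood at 215, 167, 90.3 and 122 FPKM in high yield and at 42.7 to 129 FPKM with a median of 68.3 in low yield. The groups overlapped only at low-yield 8, the library with 129 FPKM. The log2 fold change was 1.02 (SE 0.27, edgeR adjusted p = 0.574), and 0.86 without low-yield 2 and 5. The integrin chain ITGA10 (LOC117395216) had 0.0751, 0.139, 0.0950 and 0.0319 FPKM in high yield and 0.0995 to 1.25 FPKM in low yield. With a log2 fold change of -2.69 (SE 0.67) it had an adjusted p of 0.574 in edgeR and 0.00942 in DESeq2, where it was the 1 row of the list called, and its log2 fold change was -2.68 without low-yield 2 and 5.

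Other receptor rows were highest in low-yield 2 and 5. The integrin chains ITGA1 (LOC131701523) and ITGA11 (LOC131709696) had log2 fold changes of -2.35 and -1.61, which turned to 0.20 and 0.64 without these libraries. The collagen uptake receptor MRC2 (mrc2) had 1.59, 0.660, 0.997 and 1.71 FPKM in high yield and 1.09 to 23.8 FPKM in low yield (log2 fold change -2.18, and -0.84 without both).

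Summed markers of the cells that make or border collagen were highest in the same libraries, though not every marker was. The lists held no collagen gene. Low-yield 2 and 5 were the 2 highest samples in 5 of the 8 fibroblast symbols, 6 of the 8 endothelium symbols and 4 of the 7 smooth muscle symbols. LUM and POSTN were highest in low-yield 3 (9.91 and 2.05 FPKM), FLT1 was highest in low-yield 1 (11.4 FPKM), and MYLK was lowest of all 12 samples in low-yield 5 (67.5 FPKM). TIE1 in high-yield pairs 1+5 and 2+6 (8.86 and 6.31 FPKM) was above low-yield 2 (4.96). Pair 1+5 was also above low-yield 2 in CNN1 (54.2 and 45.3 FPKM) and LMOD1 (0.751 and 0.712). Summed fibroblast markers (all 8 symbols matched, THY1 with a mean below 0.1 FPKM) were 44.3 to 98.6 FPKM in high yield, and in low yield 174 FPKM in library 2, 131 in library 5 and 20.1 to 76.0 in the other 6. FBLN1 made up most of this sum in high yield (40.5 to 90.6 FPKM). In FBLN1 low-yield 5, at 76.4 FPKM, was below high-yield pair 1+5. Summed endothelium markers (8 of 8 symbols) were 9.72 to 18.4 FPKM in high yield, against 63.9 and 105 FPKM in low-yield 2 and 5 and 10.8 to 23.5 in the other 6. Smooth muscle markers (7 of 7) were 171 to 354 FPKM in high yield, against 397 and 1870.4 FPKM in low-yield 2 and 5 and 136 to 279 in the other 6. The largest part of that sum was MYLK in high yield (101 to 290 FPKM) and CNN1 in low-yield 5 (1095 FPKM). The part of these cell types in the collagen values was not tested, and in bulk tissue fewer cells of a type and less RNA per cell cannot be told apart.

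Leukocyte markers (7 of 8 symbols) were 12.4 to 24.5 FPKM in high yield, and in low yield 416 FPKM in library 2, 264 in library 5 and 6.75 to 60.8 in the other 6, and all 7 had low-yield 2 and 5 as the 2 highest samples. Granulosa markers (7 of 8) were 5.73 to 10.1 FPKM in high yield, against 69.8 and 18.0 FPKM in low-yield 2 and 5 and 8.97 to 77.1 in the other 6. That sum was mostly LHX9 in several libraries (74.2 FPKM in low-yield 3), and in 4 of the 7 symbols, FOXL2, WT1, INHA and FSHR, low-yield 2 and 5 were the 2 highest samples. Erythrocyte markers (3 of 4, HBA and SLC4A1 with means below 0.1 FPKM) reached at most 0.364 FPKM in high yield and 1.44 FPKM in low yield, in library 2. The defining markers of the oocyte were present in every sample (6 of 8 symbols), summed at 25619 to 38930 FPKM in high yield, and in low yield at 30931 FPKM in library 2, 100362 in library 5 and 28408 to 40584 in the other 6. ZP3 made up nearly all of this sum (99448 FPKM in low-yield 5). Of the other symbols BMP15, GDF9 and DDX4 were lowest of the 12 samples in low-yield 5, at 13.1, 2.40 and 14.2 FPKM. NOBOX and ZAR1 were not, at 6.10 and 878 FPKM in low-yield 5 with low-yield medians of 5.38 and 889.

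The tested rows of the marker lists had 0 calls in edgeR. At an unadjusted p under 0.05, 5 endothelium, 4 leukocyte, 2 fibroblast, 2 granulosa, 1 smooth muscle and 1 oocyte rows were lower in high yield (background 3.35%), and 1 oocyte row was higher (background 5.18%). The median log2 fold changes, with all samples and then without low-yield 2 and 5, were -1.42 and -0.44 for fibroblast (11 rows tested with all samples), -2.08 and 0.14 for endothelium (19), -2.01 and 0.35 for smooth muscle (16), -2.32 and 0.13 for leukocyte (13), -1.40 and -0.12 for granulosa (13), -0.29 and -0.13 for oocyte (63) and -1.49 and 0.66 for erythrocyte (4).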

How the data were processed

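Ovary RNA was measured in 8 high-yield and 8 low-yield libraries. Per the labels' protocols, poly(A) RNA was captured and fragmented and the second strand was digested; per the submitters' processing notes, cutadapt 1.9 was used. Which aligner, counter, build and annotation were used is not given in the sources used here, so distances between rows are in bases of an unstated build. Per the file headers, the authors deposited a count and an FPKM value for each gene and library. Per gene, 79.2% of the ratios of count to FPKM were within 1% of a constant after scaling by library. No counting intervals are given, since the spread between samples was used.

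Counts of near-identical high-yield pairs were summed and FPKM averaged (4 against 8). The test was edgeR 4.0.16's quasi-likelihood F test with filterByExpr and TMM, two-sided, Benjamini-Hochberg adjusted over all tested genes, threshold 0.05. It was checked on simulated data. Pairs were compared by Spearman's rho of genes with a mean count of at least 10, and by dispersion at a mean count of at least 20. Levels are FPKM, and fold changes are on TMM-scaled counts. The SE given with an edgeR fold change is its absolute value over the square root of the F statistic, since the test itself gives none. Named collagen rows, as counted below, are the 4 most abundant tested rows of each class and the 10 with the smallest p. Other collagen rows mentioned in the text are not in that set. Of the processing list, the most abundant tested row of each symbol could be named, and the 14 named were picked from these after their values were seen. Symbols were matched by gene name or by protein description. The collagen members, the processing list and the marker lists (fibroblast, endothelium, leukocyte, smooth muscle, granulosa, oocyte, erythrocyte) were chosen with earlier results of these data known. Alternatives were DESeq2 1.42.0, limma 3.58.1 on log2(FPKM + 1) and log2(FPKM + 0.1) for genes averaging at least 1 FPKM, other scalings, no low-count filter, 16 libraries with and without a replicate block, 1 library per pair, and leaving out samples. R 4.3.3 and Python 3.11.15 were used.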

Additional observations from a re-analysis of the deposited data

Results flagged for a closer look

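Dixon's ratio, the gap of the highest or lowest sample to its neighbour over the range of the group, was taken in 84 groups of samples (the named collagen rows and the summed classes, in each yield group), and set against its critical value for 4 or 8 samples. Chance gives about 1 in 20 groups when values are normal and groups independent. Here 20 of the 84 passed. FPKM was not log-transformed and the groups share samples and rows, so this count cannot be judged against that rate. In 16 of these the sample was low-yield 2, and in 3 low-yield 5.

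Low-yield 2 stood far above the other low-yield libraries in the summed FACIT rows (178 FPKM, others at most 48.0), the summed type IV rows (183 FPKM, others at most 65.6) and the summed rows of the other types (66.7 FPKM, others at most 21.2). Among FACIT rows it did so in LOC117402494 (XXI, 70.4 FPKM), LOC117402299 (XII, 30.1 FPKM) and LOC117410940 (XII, 13.4 FPKM). In type IV these rows were LOC117963365 (57.5 FPKM), LOC117412163 (49.3 FPKM) and col4a6 (38.3 FPKM). In the fibrillar class they were LOC117971446 (XI, 65.2 FPKM), LOC117434268 (XI, 6.23 FPKM) and LOC117402031 (V, 0.546 FPKM). The rest were LOC117394167 (XXVIII, 57.6 FPKM), LOC117435630 (XXVIII, 2.41 FPKM), LOC131701619 (VII, 1.42 FPKM) and LOC117409320 (XXV, 1.18 FPKM).

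Low-yield 5 stood apart in LOC117429170 (XXVI, 10.2 FPKM, others at most 0.843) and in the XVIII rows LOC117426758 (8.55 FPKM, others at most 4.11) and LOC117409287 (6.81 FPKM, others at most 3.22). In high yield, pair 4+8 stood above the other 3 pairs in the alpha-2(I) row LOC117426870 (2.58 FPKM, others at most 0.938).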

How the results depend on the processing

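Collagen calls were 0 under every alternative run, and leaving out 1 high-yield pair or 1 low-yield library gave 0 to 0 calls among all genes, collagen rows and processing rows. Over all genes, calls numbered 16 with 16 libraries taken as independent and 86 with DESeq2, and DESeq2 called 1 processing row. The collagen median of -1.32 was -0.085 without low-yield 2 and 5 together, and -1.46 to -0.78 when samples were left out 1 at a time. Under the other alternatives it ran from -1.48 (library size only) to -0.58. The same-numbered high- and low-yield libraries did not deviate together throughout (correlations of -0.18 to 0.40). For high-yield libraries 4, 5 and 7 the same-numbered low-yield library had the highest correlation, and for the others it did not. The numbers were not taken as pairs. With a replicate block over 16 libraries 0 genes were called and the collagen median was -0.58.

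Of 47 named rows tested without low-yield 2 and 5, 16 turned direction: col4a6 (0.50), LOC117405640 (0.074), LOC117405641 (0.078), LOC131728757 (0.33), LOC131727273 (0.0095), LOC117412744 (0.54), LOC117434956 (0.17), LOC117422365 (0.10), LOC117426758 (0.17), LOC117394468 (0.29), LOC117429170 (2.29), LOC117415179 (0.025), LOC117423582 (-0.048), LOC117962315 (0.16), LOC131701523 (0.20) and LOC131709696 (0.64). LOC117429170 also turned with the replicate block (1.27), DESeq2 (2.14) and limma (0.22 with a pseudocount of 1, 0.71 with 0.1), and LOC131709696 with DESeq2 (0.071). When samples were left out 1 at a time, direction turned within these ranges: LOC117400243 -0.22 to 0.0025, LOC117426758 -0.39 to 0.18, LOC117409287 -0.16 to 0.82, LOC117429170 -1.87 to 2.25, LOC131699602 -0.48 to 0.13, LOC117409320 -1.22 to 0.41, LOC117423582 -0.059 to 0.24, LOC117971682 -0.72 to 1.17 and LOC131709696 -1.80 to 0.093. The cause was not tested. The number of samples, 4 against 8, limits the precision, and low counts limit the values of the scarcest rows.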

Other observations

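Further rows with collagen symbols or names fell outside the rule because their descriptions are worded otherwise, and they were picked after their values were seen. The row col1a2 stood at 3.19 ± 1.20 FPKM in high yield (SD, n = 4) and 9.69 ± 14.3 FPKM in low yield (SD, n = 8), with 32.3 and 33.2 FPKM in low-yield 2 and 5. Its log2 fold change was -1.52, and 0.61 without these libraries. The row col6a3 stood at 5.47 ± 1.07 FPKM in high yield and 32.2 ± 50.9 FPKM in low yield, with 93.9 and 132 FPKM in low-yield 2 and 5, and its log2 fold change of -2.52 was 0.01 without them. A pair of rows described as type 2 collagen alpha 1 chain, LOC117400958 and LOC117962559, did not pass the low-count filter and reached at most 0.591 and 1.16 FPKM, both in low-yield 2.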
